A study of Mus musculus with 13 samples.

Results

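Krüppel-like factors (KLFs) are zinc-finger transcription factors. The 10 KLF genes Klf2, Klf3, Klf4, Klf6, Klf7, Klf9, Klf10, Klf11, Klf12, and Klf13 were followed through RNA-Seq data of bone marrow (BM) cells from mice of 4 genotypes. They were chosen among family members other than the erythroid factor Klf1, with earlier results of these data known. All 10 had a row in the count table of 54838 genes and passed the filter on low counts that left 17795 genes for testing. GENCODE release M21 names 17 Klf genes in all, and the other 7 are given only where they set the members in context.

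RNA was taken from 50000 sorted Lin- cKit+ cells per mouse, a fraction without markers of mature lineages in which hematopoietic stem and progenitor cells (HSPCs) are enriched. All mice carried Mx1-Cre, whose interferon-responsive promoter drives Cre in blood cells and also in some other tissues. Control mice (n = 3) carried Mx1-Cre alone. The p53mut mice (n = 3) were Mx1-Cre; p53 R172H/+, in which 1 of the p53 alleles encodes a missense mutant. NrasG12D mice (n = 3) were Mx1-Cre with 1 oncogenic Nras allele, which their titles give as G12D and their genotype field as G21D. NPmut mice (n = 4) were Mx1-Cre; p53 R172H/+; Nras G12D/+. Control, p53mut, and NrasG12D mice had received pI-pC, a double-stranded RNA that induces interferon, as 3 doses of 100 µg from about 6 weeks of age, whereas NPmut mice received none and were moribund when sampled. The single mutants and controls are labelled as age-matched. The double mutant genotype, the missing injections, and the late disease stage therefore cannot be told apart. Libraries held 12576174 to 29124022 counts, both extremes being NPmut mice 4 and 2. Levels of a gene are given as CPM, its counts scaled to a common library size. More than 10 CPM on the Y-linked gene Ddx3y marked 1 of 3 control, 1 of 3 p53mut, 1 of 3 NrasG12D, and 2 of 4 NPmut mice as male.

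All KLFs share 3 zinc fingers at the C-terminus that bind GC-rich and CACCC elements, and they differ in the regions outside the fingers. Klf2, Klf4, Klf6, and Klf7 mostly activate transcription. Klf3 and Klf12 bind the corepressor CtBP, while Klf9, Klf10, Klf11, and Klf13 bind SIN3A. In blood, KLF2 restrains T cell and monocyte activation, KLF4 promotes monocyte differentiation, and several KLF genes respond to signals within minutes to hours, among them the TGF-β-inducible Klf10 and Klf11 and the glucocorticoid-inducible Klf9.

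The finger-coding stretch was found in the transcripts of all 10 genes and spans 81 codons, or 243 bases, with 12 codons for the cysteine and histidine residues that hold zinc. Klf2, Klf4, Klf6, and Klf7 are shown because the first 3 carried the main change in NPmut mice while Klf7, the closest relative of Klf6 by sequence, did not pass the test. The 12 zinc-holding codons are in capitals.
Klf2: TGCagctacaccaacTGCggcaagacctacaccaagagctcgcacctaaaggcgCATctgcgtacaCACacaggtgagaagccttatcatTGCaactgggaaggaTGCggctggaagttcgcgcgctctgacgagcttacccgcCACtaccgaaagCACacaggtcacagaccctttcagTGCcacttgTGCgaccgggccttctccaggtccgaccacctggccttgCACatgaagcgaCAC
Klf4: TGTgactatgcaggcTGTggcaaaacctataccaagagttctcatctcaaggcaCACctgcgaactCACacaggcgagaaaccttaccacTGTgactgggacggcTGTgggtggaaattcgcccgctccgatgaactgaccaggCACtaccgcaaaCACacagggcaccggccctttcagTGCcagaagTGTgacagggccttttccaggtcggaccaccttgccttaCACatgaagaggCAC
Klf6: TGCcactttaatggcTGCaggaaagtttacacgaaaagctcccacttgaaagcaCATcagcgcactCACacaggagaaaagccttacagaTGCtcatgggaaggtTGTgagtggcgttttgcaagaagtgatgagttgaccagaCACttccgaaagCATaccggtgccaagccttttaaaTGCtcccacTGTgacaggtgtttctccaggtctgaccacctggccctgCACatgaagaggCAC
Klf7: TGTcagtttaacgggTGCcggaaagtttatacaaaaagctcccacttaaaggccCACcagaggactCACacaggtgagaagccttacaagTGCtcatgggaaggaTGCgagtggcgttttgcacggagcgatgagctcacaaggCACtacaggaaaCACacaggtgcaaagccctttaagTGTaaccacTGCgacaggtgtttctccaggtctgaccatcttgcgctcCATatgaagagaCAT
On GRCm38, the Klf2 stretch lies in exons 2 to 3 on the plus strand (chr8:72320170-72320913), that of Klf4 in exons 4 to 5 on the minus strand (chr4:55528131-55529790), that of Klf6 in exons 2 to 4 on the plus strand (chr13:5865272-5867277), and that of Klf7 in exons 2 to 4 on the minus strand (chr1:64035719-64078779), with the introns inside each range. Klf6 and Klf7 were identical at 81.1% of the bases of this stretch, the highest value among the 45 pairs of members, and Klf2 and Klf4 were identical at 78.2%. The lowest identity was 57.2%, found for Klf9 with Klf4 and with Klf7. Over whole transcripts, the longest run of identical bases in any pair was 41, shared by Klf3 and Klf12, and the median over pairs was 14. Reads within such runs could be counted for either gene, and how the counting treated them is not given in the sources used here.

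The members differed widely in level. Levels between genes are given per length, as CPM divided by exonic length in kilobases (RPKM). This length joins all annotated exons of a gene, and the order of genes depends on it. For Klf3 it is 11243 bases, against 5221 in the transcript used for its finger-coding stretch. Klf13 was the most abundant member in all 4 groups, at 15.7 ± 0.22 RPKM in control (SD, n = 3), 19.2 ± 2.77 in p53mut (SD, n = 3), 19.9 ± 2.34 in NrasG12D (SD, n = 3), and 23.8 ± 7.48 in NPmut mice (SD, n = 4). Klf12 was the least abundant in every group, with means between 0.113 and 0.300 RPKM. In control mice, Klf10 followed Klf13 at 7.65 ± 0.396 RPKM, and Klf9, Klf3, and Klf6 came next at means of 6.75, 5.11, and 4, each overlapping the gene before it. Klf11, Klf2, Klf4, and Klf7 formed a lower run of overlapping genes, from 2.69 down to 1.5 RPKM. The order in p53mut and NrasG12D mice kept Klf13 and Klf10 at the top and Klf2, Klf4, and Klf7 in places 7 to 9. In NPmut mice, Klf6, Klf2, and Klf4 stood in places 2 to 4, at 15.7 ± 7.61, 14.5 ± 10, and 13.6 ± 4.57 RPKM (SD, n = 4), and the ranges of Klf13 and these 3 genes overlapped from each to the next. The 10 members together summed to 278 to 306 CPM in control, 287 to 394 in p53mut, 314 to 364 in NrasG12D, and 364 to 561 in NPmut mice.

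**Figure D1:**
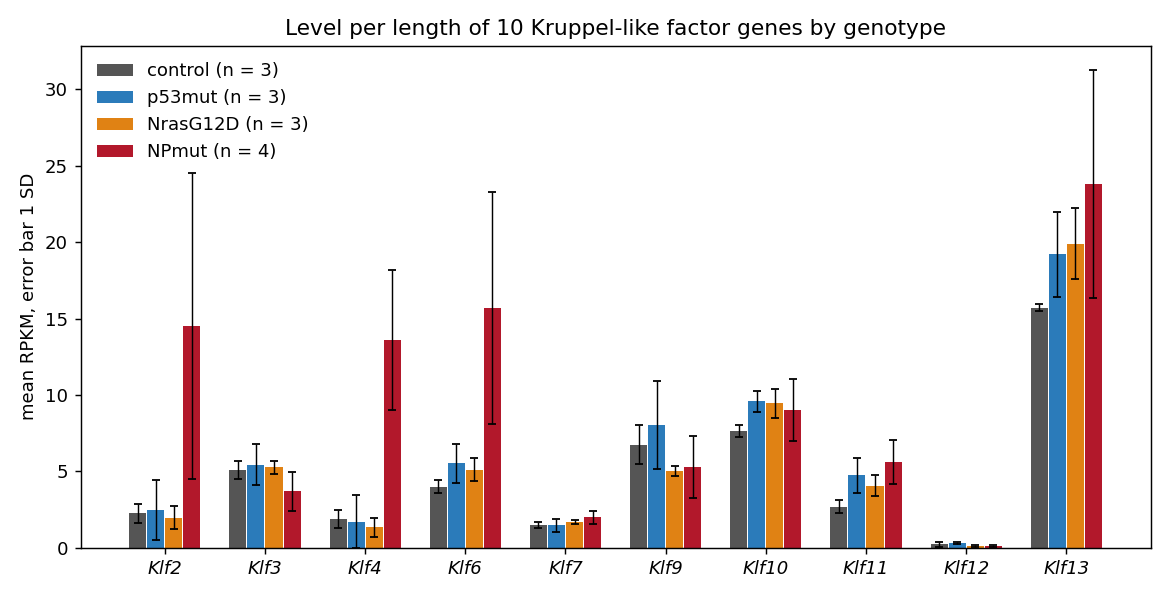
Mean RPKM of each member (y axis) in control, p53mut, NrasG12D, and NPmut mice (colors), with error bars of 1 SD over 3, 3, 3, and 4 mice. Klf13 is highest in each group, and Klf2, Klf4, and Klf6 reach means of 14.5, 13.6, and 15.7 in NPmut mice against 2.25, 1.88, and 4 in control mice.

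Klf2, Klf4, Klf6, and Klf11 rose in NPmut mice compared with control mice, and no member fell. Klf4 rose 7.22-fold, Klf2 6.39-fold, Klf6 3.91-fold, and Klf11 2.09-fold. A gene counts as changed at an adjusted p under 0.05 in edgeR's quasi-likelihood test over all 17795 genes. These were 4 of 10 members, whereas 5.38% of all genes tested rose and 5.54% fell. All 4 were also DEGs, with a fold change of at least 2, as were 6.01% of all genes. All NPmut mice lay above all control mice for 3 members, Klf2, Klf4, and Klf11, beside 10.4% of all genes. The median log2 fold change of the 10 members was 0.50 against 0.014 for all genes. The members were chosen with earlier results of these data known, which limits these contrasts. Of the 4 other Klf genes tested, 0 rose and 1 fell, at a median log2 fold change of -0.27. Because RNA came from pools of cells, a larger share of cells that express a gene cannot be told apart from more RNA per cell.

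Klf2 (chr8:72319033-72321656, plus strand), a factor tied to quiescence and to blood-flow responses of endothelium, was at 4.89, 2.84, and 4.74 CPM in control mice 1 to 3. In p53mut mice it was at 2.07, 8.77, and 2.78 CPM, and in NrasG12D mice at 2.14, 4.91, and 3.82 CPM. NPmut mice 1 to 4 had 21, 29.1, 6.27, and 50.7 CPM. All NPmut mice lay above all control and NrasG12D mice, but NPmut mouse 3 lay below p53mut mouse 2. The log2 fold change in NPmut against control mice was 2.68 ± 0.67 (SE), with an adjusted p of 0.0241. Leaving out any 1 control mouse ended this call, with adjusted p-values of 0.0701, 0.0919, and 0.0862 for control mice 1 to 3 from edgeR, as did leaving out NPmut mouse 2, with 0.0657. The call was also lost with no filter on low counts (adjusted p = 0.0738) and with the replicate number as a block, where the log2 fold change was 1.95 (adjusted p = 0.0627). With any 1 of the 13 mice left out, the log2 fold change was between 2.16 and 3.00.

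Klf4 (chr4:55527143-55532466, minus strand), a pluripotency and monocyte factor, had 3.85, 7.23, and 6.12 CPM in control mice. It was at 2.36, 11.3, and 1.79 CPM in p53mut mice and at 2.32, 3.8, and 6.02 CPM in NrasG12D mice. The 4 NPmut mice had 44.4, 50.4, 20.9, and 50 CPM, all above every mouse of the other 3 groups. Its log2 fold change in NPmut against control mice was 2.85 ± 0.59 (SE; adjusted p = 0.0103, edgeR). Without control mouse 3 the adjusted p was 0.0517 at a log2 fold change of 2.91.

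Klf6 (chr13:5861482-5870394, plus strand), which is induced in injured tissue and in activated macrophages, had 19.8, 16.6, and 16.4 CPM in control, 21, 30.7, and 20.8 CPM in p53mut, and 18.9, 22.7, and 25.4 CPM in NrasG12D mice. NPmut mice 1, 2, and 4 had 83.3, 78.6, and 94 CPM, whereas NPmut mouse 3, at 19.7 CPM, lay within the control range. The log2 fold change was 1.97 ± 0.41 (SE; adjusted p = 0.00953, edgeR). It was 2.28 without NPmut mouse 3, and the adjusted p was 0.0539 without control mouse 3. With the replicate block and only the control and NPmut mice fitted, it was 1.56 with an adjusted p of 0.167. Klf7, best known from neuronal development, ranged from 11.1 to 14 CPM in control and from 11.2 to 18.8 CPM in NPmut mice and did not pass the test (log2 fold change 0.39 ± 0.21 SE, adjusted p = 0.256, edgeR).

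Klf11 (chr12:24651274-24662789, plus strand), a TGF-β-inducible repressor, showed another pattern. Control mice had 10.1, 11.2, and 13.8 CPM, and every mouse of the other 3 groups was higher. The values were 15.3, 21.4, and 25.1 CPM in p53mut mice, 18.4, 20.2, and 14.3 CPM in NrasG12D mice, and 25.9, 15.2, 29, and 27.7 CPM in NPmut mice. The log2 fold change in NPmut mice was 1.06 ± 0.23 (SE; adjusted p = 0.0095, edgeR), and the gene passed the test in all 21 alternative settings run. NPmut mouse 3, the lowest of its group for Klf2, Klf4, and Klf6, was the highest for Klf11, and NPmut mouse 2 was the lowest.

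Klf13, Klf10, and Klf9, the other SIN3A-binding members, did not pass the test in NPmut mice. Klf13 was at 117, 120, and 117 CPM in control mice and at 171, 106, 240, and 199 CPM in NPmut mice. NPmut mouse 2 was below all controls and the other 3 NPmut mice above them, and the log2 fold change was 0.60 ± 0.20 (SE; adjusted p = 0.0763, edgeR). Without NPmut mouse 2 it was 0.78 with an adjusted p of 0.00135, and with no filter on low counts it was 0.63 with an adjusted p of 7.22e-05. Klf10 ranged from 30.5 to 33.7 CPM in control and from 30.9 to 49.9 CPM in NPmut mice (log2 fold change 0.23), and Klf9 from 25.7 to 38 and from 15.7 to 35 CPM (log2 fold change -0.36).

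The CtBP-binding members had negative estimates that did not pass the test in the fit to all libraries, although Klf3 did under some alternatives. Klf3, a repressor expressed in erythroid and B cells, was at 50.5, 58, and 63.8 CPM in control mice and at 40.2, 24.1, 43.1, and 59.3 CPM in NPmut mice. The groups overlapped through NPmut mouse 4 alone, and the log2 fold change was -0.47 ± 0.23 (SE; adjusted p = 0.217, edgeR). It passed as lower without NPmut mouse 4 (-0.69, adjusted p = 0.0435), with no filter on low counts (-0.44, adjusted p = 0.0392), and with the replicate block (-0.70, adjusted p = 0.0235). Klf12 had only 6 to 57 counts per library, which limited its precision. It was at 1.38, 0.494, and 2.9 CPM in control and at 1.01, 0.347, 1.07, and 0.763 CPM in NPmut mice (log2 fold change -1.02 ± 0.55 SE, adjusted p = 0.265, edgeR).

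**Figure D2:**
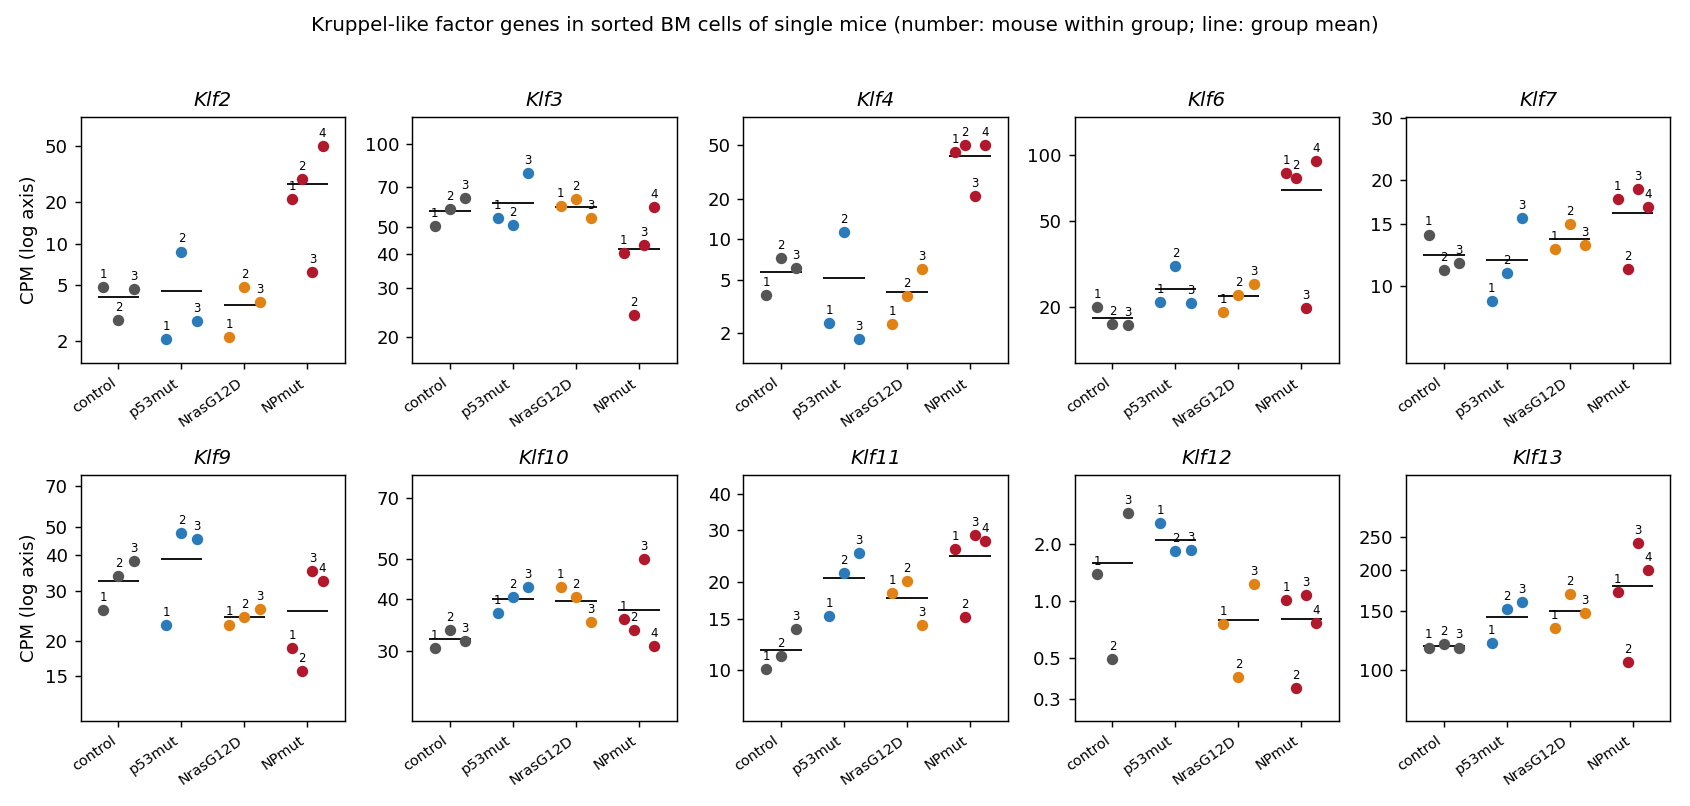
CPM of the 10 members in each mouse (log y axis), with 1 panel per gene, mice numbered within their group on the x axis, and a line at the group mean. Klf4 is above 20 CPM in all 4 NPmut mice and at 11.3 CPM or below in all others, and NPmut mouse 3 is at the control level of 16.4 to 19.8 CPM for Klf6.

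No member passed the test in p53mut compared with control mice (0 of 10 with edgeR and 0 with DESeq2, 1 at an unadjusted p under 0.05). Of all genes tested, 0% passed with edgeR, with 415 genes at an unadjusted p under 0.05 and 2 genes called by DESeq2. Klf11 had the largest estimate. Its log2 fold change was 0.82 ± 0.24 (SE), 1.77-fold, with an unadjusted p of 0.0044 and an adjusted p of 1 from edgeR's fit to all libraries. Deviations from the group mean correlated weakly between control and p53mut mice of equal number (0.152 to 0.166). The labels tie this number to nothing shared, and mice of unequal number were not compared. With these 6 libraries alone and the replicate number as a block, Klf11 passed at a log2 fold change of 0.80 (adjusted p = 0.0206, edgeR). It was the only member to do so, beside 56 of 16685 genes. With the block in the fit to all libraries, 0 genes passed. Groups did not overlap for 4 of 10 members, with p53mut above control for Klf6, Klf10, Klf11, and Klf13, beside 5.47% of all genes with p53mut above and 5.71% with p53mut below control.

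Among those 4 genes, Klf10 was at 30.5, 33.7, and 31.7 CPM in control and at 37, 40.4, and 42.7 CPM in p53mut mice (log2 fold change 0.33 ± 0.16 SE). Klf13 was at 121, 153, and 160 CPM in p53mut mice, with p53mut mouse 1 just above the control maximum of 120 CPM (log2 fold change 0.29 ± 0.22 SE). The estimate for Klf6 was 0.46 ± 0.42 (SE). For Klf2 and Klf4 the p53mut mice were spread around the controls, with log2 fold changes of 0.11 ± 0.69 and -0.17 ± 0.62 (SE). Here p53mut mouse 2 was above all control and NrasG12D mice for both genes, and without this mouse the estimates were -0.77 and -1.47. The highest p53mut value was 4.25 times the lowest for Klf2 and 6.28 times for Klf4, against 1.72 and 1.88 times in control mice. Klf9 was at 22.7, 47.8, and 45.4 CPM, with p53mut mouse 1 below all controls and the other two above them. Klf3 ranged from 50.9 to 78.3 CPM, Klf7 from 9.08 to 15.6 CPM, and Klf12 from 1.84 to 2.58 CPM, and each overlapped the controls.

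The comparison of NrasG12D with control mice also called no member (0 of 10 with edgeR and 0 with DESeq2, 1 at an unadjusted p under 0.05). Among all genes tested, 1 passed, or 0.00562%, with 1642 genes at an unadjusted p under 0.05 and 141 called by DESeq2. Klf11 again had the lowest p of the members (unadjusted p = 0.0284, adjusted p = 0.47, edgeR), with a log2 fold change of 0.59 ± 0.24 (SE). Klf10, Klf11, and Klf13 did not overlap between the groups, all with NrasG12D above, beside 10.9% of all genes with NrasG12D above and 10.2% with NrasG12D below control. Klf10 was at 42.8, 40.5, and 35.2 CPM in NrasG12D mice (log2 fold change 0.30 ± 0.16 SE), and Klf13 at 134, 169, and 148 CPM (log2 fold change 0.35 ± 0.22 SE). Both single mutants were compared with the same 3 control mice, so that these values are not independent of those in p53mut mice.

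Estimates of the activating members in NrasG12D mice lay within 1 SE of 0. Klf2, Klf4, and Klf6 had log2 fold changes of -0.21 ± 0.70, -0.51 ± 0.62, and 0.35 ± 0.42 (SE), and that of Klf7 was 0.15 ± 0.22 (SE). Klf9 was at 22.8, 24.2, and 25.8 CPM, its narrowest range in any group, and the highest of these values just overlapped the lowest control value of 25.7 CPM (log2 fold change -0.42 ± 0.31 SE). Klf3 ranged from 53.9 to 63.4 CPM. Klf12, at 0.753, 0.393, and 1.23 CPM, had a log2 fold change of -1.01 ± 0.60 (SE).

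Klf2, Klf4, and Klf6 were also higher in NPmut mice than in either single mutant. Against NrasG12D mice, 3 of 10 members rose and 0 fell, where 3.92% of all genes rose and 4.97% fell. Klf4 was 10.3-fold higher (log2 fold change 3.36 ± 0.62 SE, adjusted p = 0.0066, edgeR), Klf2 7.37-fold (2.88 ± 0.68 SE, adjusted p = 0.0217), and Klf6 3.08-fold (1.62 ± 0.40 SE, adjusted p = 0.0255). Against p53mut mice, the same 3 members rose and 0 fell, where 4.81% of all genes rose and 5.14% fell. Klf4 was 8.13-fold higher (3.02 ± 0.60 SE, adjusted p = 0.00861, edgeR), Klf2 5.90-fold (2.56 ± 0.67 SE, adjusted p = 0.0314), and Klf6 2.85-fold (1.51 ± 0.40 SE, adjusted p = 0.0324). Klf11 did not pass either test, at log2 fold changes of 0.47 ± 0.23 against NrasG12D and 0.24 ± 0.23 against p53mut mice (SE). Nor did Klf3, at -0.51 ± 0.23 and -0.56 ± 0.23 (SE) in the same order, although it passed under some alternatives. All NPmut mice lay above all NrasG12D mice for 2 members, beside 9.34% of all genes, and above all p53mut mice for 1, beside 9.1%. Klf12 was lower in all NPmut mice than in all p53mut mice, as were 10.5% of all genes, on 9 to 20 against 25 to 35 counts. Its log2 fold change of -1.39 ± 0.55 (SE) had an adjusted p of 0.129 in edgeR. These comparisons share the NPmut mice with each other and with the comparison to controls.

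Only the Klf4 calls against the single mutants stood in every refit without 1 mouse. Klf2 and Klf6 missed the threshold against NrasG12D mice without NrasG12D mouse 1 (adjusted p = 0.101 and 0.111, edgeR), mouse 2 (0.0661 and 0.0962), mouse 3 (0.0765 and 0.0698), or NPmut mouse 2 (0.0609 and 0.0856), and Klf6 also without NPmut mouse 1 (0.053) or 4 (0.055). Against p53mut mice, both genes missed it without p53mut mouse 1 (0.121 and 0.127), p53mut mouse 3 (0.142 and 0.142), NPmut mouse 2 (0.0778 and 0.0961), or NPmut mouse 4 (0.053 and 0.072), and Klf6 also without NPmut mouse 1 (0.0688). Both genes missed it in both comparisons with no filter on low counts (0.0792 to 0.106). With the replicate block, Klf6 missed it against NrasG12D (0.104) and p53mut mice (0.123), and Klf2 against p53mut mice (0.0582). Klf3 passed as lower against NrasG12D and p53mut mice with this block (0.0197 and 0.0166), with no filter (0.0127 and 0.00649), and without NPmut mouse 4 (0.0397 and 0.0284). Klf12 passed as lower against p53mut mice with the block (0.0477).

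**Figure D3:**
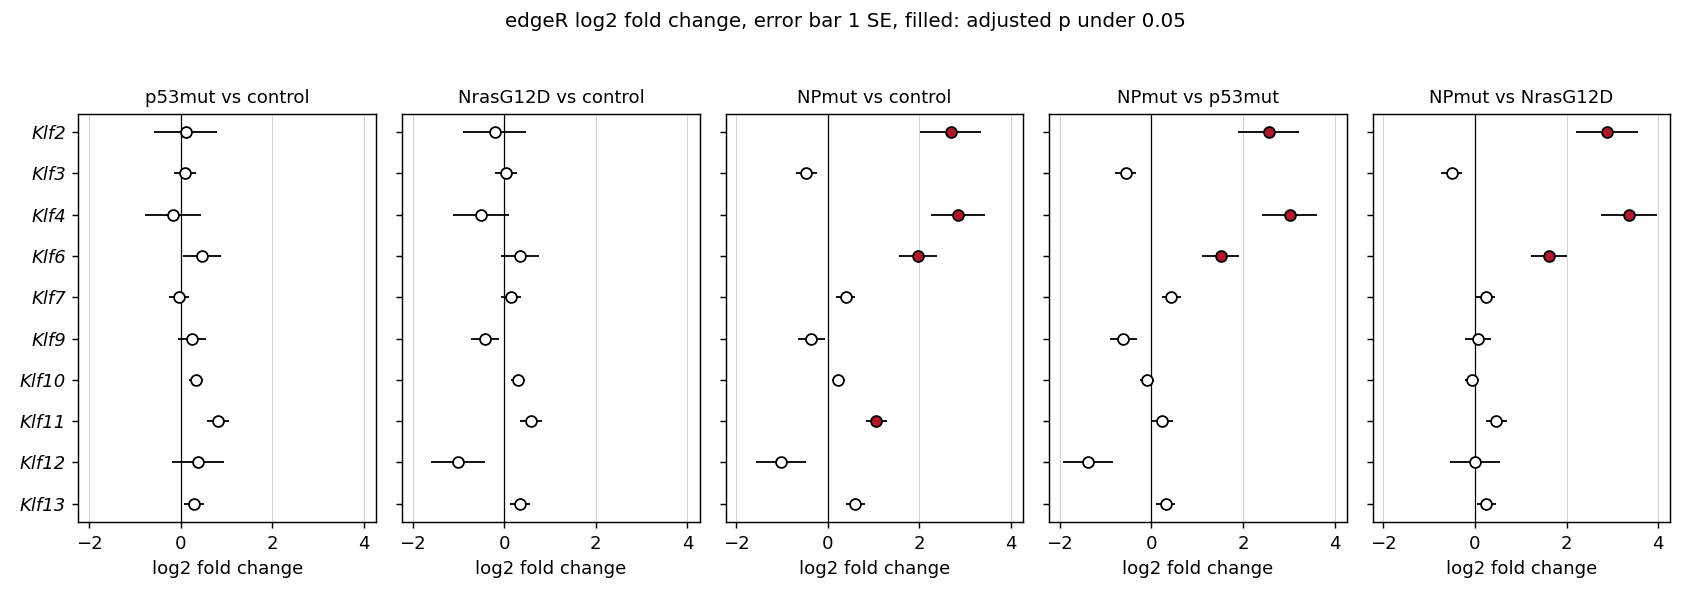
Log2 fold change (x axis) of each member (y axis) in 5 comparisons, with error bars of 1 SE and filled points at an adjusted p under 0.05 in edgeR. Filled points are found only in the 3 NPmut panels, for Klf2, Klf4, and Klf6 in each and for Klf11 against control mice.

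Whether the change in NPmut mice differed from the sum of both single-mutant changes was tested as an interaction on the log2 scale. It called 0 of 10 members, beside 1.74% of all genes. At an unadjusted p under 0.05 there were 2 members, beside 16.1% of all genes, and DESeq2 called 1 member, beside 876 of 16180 genes. Klf4 had an interaction of 3.53 ± 0.85 (SE; adjusted p = 0.0603, edgeR), and DESeq2 gave an adjusted p of 0.00759. Without p53mut mouse 2 the Klf4 value was 4.83 and the adjusted p 0.00274, and 462 of 18507 genes passed. Klf2 and Klf6 had interactions of 2.77 ± 0.95 and 1.17 ± 0.57 (SE; adjusted p = 0.174 and 0.342, edgeR). Without NPmut mouse 3, all 3 genes passed, with adjusted p-values of 0.0335 for Klf2, 0.026 for Klf4, and 0.00563 for Klf6. In that fit 653 of 17561 genes passed. The interaction of Klf11 was -0.35 ± 0.33 (SE), and the group means of 11.7, 20.6, 17.6, and 24.4 CPM in control, p53mut, NrasG12D, and NPmut mice rose less from either single mutant to NPmut than from control to p53mut mice. That of Klf13 was -0.041 ± 0.30 (SE).

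The spread between mice of a group differed from gene to gene. The SD of log2 CPM in NPmut mice was 1.26 for Klf2 and 1.06 for Klf6, against a median of 0.351 over all genes tested, and 0.605 for Klf4. In p53mut mice it was 1.07 for Klf2 and 1.39 for Klf4, against a median of 0.215. Control mice were closest for Klf13, at 0.0202 against 0.196. By the root mean square difference of log2 CPM profiles centered over all 13 libraries, the tested genes most like Klf6 among 12977 searched were Btg2 at 0.282, Nfkbid at 0.309, and Junb at 0.311. Those most like Klf2 were Zfp36, Fn1, and Ccl3, at 0.49 to 0.523, and for Klf4 they were I830127L07Rik, Itga1, and Stxbp6, at 0.447 to 0.635. Among pairs of members, Klf7 and Klf13 were the closest at 0.201, and Klf13 was the third most similar gene to Klf11 at 0.262.

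Immediate-early genes, which are induced within minutes of a stimulus or of stress on the cells, were set beside Klf2, Klf4, and Klf6 mouse by mouse. Of 15 such genes, 9 rose and 0 fell in NPmut compared with control mice (median log2 fold change 1.5 against 0.014 for all genes). Nr4a1 rose 30.7-fold, Egr3 30.2-fold, Atf3 22-fold, and Fos 10.4-fold (adjusted p = 0.0143, 0.0113, 0.0449, and 0.0468, edgeR). Summed over the list, control mice had 282 to 326 CPM and NrasG12D mice 243 to 325 CPM. NPmut mice 1, 2, and 4 had 1180, 1000, and 1891 CPM, whereas NPmut mouse 3 had 269 CPM, below every control. In NPmut mouse 3, Klf6 was within the control range at 19.7 CPM, but Klf2 at 6.27 and Klf4 at 20.9 CPM were above all controls. In p53mut mice the sums were 260, 431, and 235 CPM, so that p53mut mouse 2, the highest single-mutant mouse for Klf2, Klf4, and Klf6, was also the highest outside the NPmut group. Nr4a1 itself was at 198, 90.3, 6.27, and 125 CPM in NPmut mice and at 7.37 CPM in p53mut mouse 2. By gene, NPmut mouse 3 was above all controls for 6 of the 15 genes, below them for 5, and within their range for 4, and p53mut mouse 2 was above all controls for 14. The calls of Fos and Atf3 were lost in 15 of 21 and 11 of 20 alternatives. The part of this list in the values of Klf2, Klf4, and Klf6 was not tested.

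The summed level of monocyte and macrophage markers was higher in all NPmut mice than in all other mice. Of 10 markers, 6 rose and 0 fell in NPmut compared with control mice (median log2 fold change 1.41 against 0.014), among them Mpeg1 at 3.53-fold, F13a1 at 2.98-fold, Csf1r at 2.80-fold, and Ccr2 at 2.69-fold. Their summed level was 582 to 682 CPM in control, 507 to 975 in p53mut, 465 to 737 in NrasG12D, and 1455 to 2290 CPM in NPmut mice. NPmut mouse 3, at 1639 CPM, was within the range of the other NPmut mice, and the highest single-mutant value of 975 CPM was again that of p53mut mouse 2. Of the defining markers, Csf1r was at 42.8 CPM or above in every mouse, and Fcgr1 was at 0.885 CPM or below in every mouse. The part of these cells in the KLF values was not tested.

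**Figure D4:**
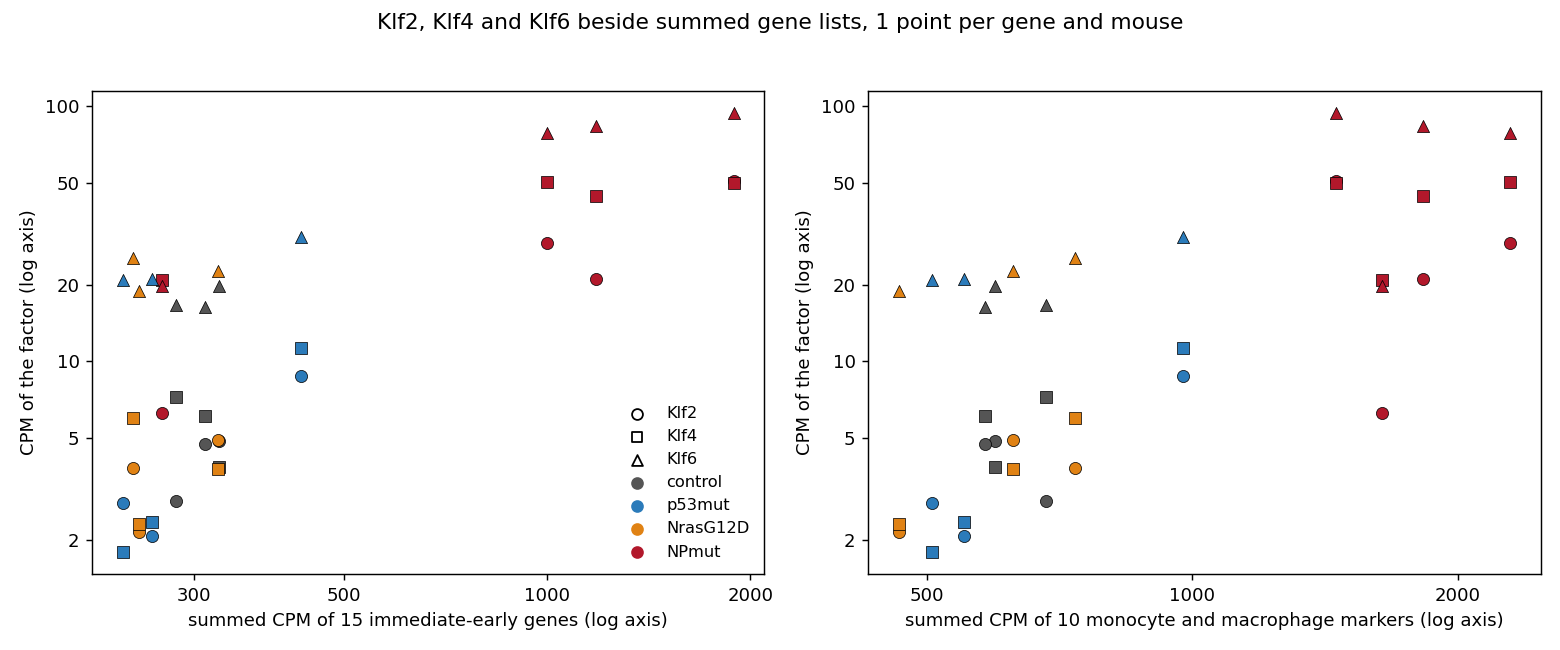
CPM of Klf2 (circles), Klf4 (squares), and Klf6 (triangles) on log y axes against the summed CPM of 15 immediate-early genes (left) and of 10 monocyte and macrophage markers (right) on log x axes, with 1 point per gene and mouse, colored by group. NPmut mouse 3 lies at 269 CPM, below the controls, on the left and at 1639 CPM among the NPmut mice on the right.

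Marker lists of other cell types gave the following values. HSPC markers summed to 2462 to 2828 CPM in control and 2142 to 2572 CPM in NPmut mice, in which Kit and Gata2 fell 1.45-fold and 3.13-fold and Flt3 and Spi1 rose 2.22-fold and 1.74-fold. Flt3 was also 2.21-fold higher in NrasG12D than in control mice without passing the test (adjusted p = 0.256, edgeR). Of 21 alternatives, the calls of Kit and Flt3 were each lost in 6, that of Spi1 in 3, and that of Gata2 in 2. Kit, the antigen of the sort, was at 288 CPM or above in every library. Neutrophil markers summed to 11745 to 14733 CPM in control and 13703 to 23066 CPM in NPmut mice with 0 of 9 tested genes called. This sum mostly follows Mpo, which reached 17944 CPM. Ltf, Camp, Ngp, S100a8, and S100a9 stayed at 93.3 CPM or below, and Ly6g, at 0.402 CPM or below, was not tested. The sum is therefore no measure of the share of neutrophils. In p53mut mice 1 to 3 it was 10105, 18185, and 9163 CPM, so that mouse 2, the highest of its group for Klf2, Klf4, and Klf6, was the highest here too. In NrasG12D mice it was 10173, 10549, and 14781 CPM. The part of this list in the KLF values was not tested. HSPC sums were 2641 to 3003 CPM in p53mut and 2973 to 3320 CPM in NrasG12D mice, and erythroid sums 443 to 771 and 372 to 536 CPM. Megakaryocyte sums were 130 to 259 CPM in p53mut and 175 to 196 CPM in NrasG12D mice, and endothelial and stromal sums 12.7 to 23.8 and 13.9 to 16.7 CPM. Erythroid markers summed to 420 to 648 CPM in control and 70.8 to 376 CPM in NPmut mice, with Gata1 falling 3.49-fold, a call lost in 6 of 21 alternatives. All 6 tested megakaryocyte markers fell in NPmut mice, and their sum was 127 to 202 CPM in control and 14.1 to 70 CPM in NPmut mice. Endothelial and stromal markers, of interest because endothelium expresses Klf2 and Klf4, summed to 13.7 to 25.8 CPM in control and only 2.12 to 7.08 CPM in NPmut mice, with Col1a2, Kdr, Emcn, and Plvap falling. B cell markers summed to 8.97 to 27.8 CPM and T cell markers to 3.47 to 8.1 CPM over all mice, with Cd3e at 0.516 CPM or below in each. Of 10 proliferation genes, only Ccnb1 passed the test, falling 1.42-fold in NPmut mice, and its call was lost in 13 of 21 alternatives.

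Of the remaining Klf genes, only Klf1, the erythroid activator, passed the test in NPmut compared with control mice, falling 3.16-fold (adjusted p = 0.0341, edgeR), from 64.4 to 95.2 CPM down to 8.29 to 50.1 CPM. This call was lost in 7 of 21 alternatives, among them without control mouse 1, 2, or 3 (adjusted p = 0.0529, 0.0923, and 0.109, edgeR) or NPmut mouse 1 (0.0812). Klf5, Klf8, and Klf16 were tested and did not pass, at log2 fold changes of -0.28, -0.27, and 0.0048. Klf14, Klf15, and Klf17 had 5 counts or fewer in every library and were not tested. In the related SP family, which binds the same GC-rich elements, Sp4 fell 1.53-fold and Sp3 rose 1.21-fold (adjusted p = 0.0129 and 0.0434, edgeR), and Sp1 and Sp2 did not pass. The Sp3 call was lost in 17 of 21 alternatives, with adjusted p-values of up to 0.254 with library totals, and the Sp4 call in 2.

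The route from MEK5 through ERK5 to MEF2 is the best-known inducer of Klf2 and Klf4 in other cell types. Of its 7 genes, 3 rose and 0 fell in NPmut compared with control mice (median log2 fold change 0.44 against 0.014). Mapk7, which encodes ERK5, rose 1.77-fold, the kinase gene Map3k3 1.74-fold, and Mef2d 1.48-fold (adjusted p = 0.00354, 0.00164, and 0.00986, edgeR). Mapk7 was at 12.3 to 17 CPM in control and at 26.2, 23.1, 22.5, and 29.7 CPM in NPmut mice, so that NPmut mouse 3 was not set apart here. Among 10 tested TGF-β signaling genes, the inhibitor Smad7 alone rose, by 1.91-fold (adjusted p = 0.00705). Of 7 glucocorticoid-responsive genes and 8 genes of KLF corepressors and the KLF2 ubiquitin ligase WWP1, 0 passed. In the first of these lists Per1 and Tsc22d3 reached an unadjusted p under 0.05 in NPmut mice, at 2.47-fold and 1.62-fold. Both genes also did so in p53mut mice, at 2.86-fold and 1.98-fold, and in NrasG12D mice, at 2.12-fold and 1.67-fold. Of all genes tested, 25.6%, 2.33%, and 9.23% reached this level in NPmut, p53mut, and NrasG12D mice.

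Among 9 tested genes known as KLF2 or KLF4 targets in lymphocytes, endothelium, or cell-cycle arrest, 5 rose and 1 fell in NPmut compared with control mice (median log2 fold change 0.91 against 0.014). Among them, the integrin gene Itgb7 rose 3.85-fold, the cyclin gene Ccnd1 3.15-fold, the cell-cycle inhibitor Cdkn1a 2.96-fold, and the anticoagulant receptor Thbd 1.88-fold, while the sphingosine phosphate receptor S1pr1 fell 3.01-fold, a call that was lost in 15 of 20 alternatives. KLF2 is known to activate S1pr1 in T cells, and KLF4 to activate Cdkn1a and repress Ccnd1 in epithelium. Itgb7 and Ccnd1 were also above all control mice in all NrasG12D mice. The part of Klf2 and Klf4 in the values of the target list was not tested. Itgb7 was at 8.65 to 11.1 CPM in control, 10.5 to 12.2 in p53mut, 20 to 32.5 in NrasG12D, and 26.4 to 45.9 CPM in NPmut mice, and DESeq2 called both genes in NrasG12D mice (edgeR adjusted p = 0.0505 for Itgb7 and 0.157 for Ccnd1). Over the 17 lists, edgeR called 0 of 126 tested genes in either single mutant. At an unadjusted p under 0.05 in edgeR there were 2 in p53mut and 26 in NrasG12D mice, beside 2.33% and 9.23% of all genes tested. DESeq2 called 0 and 3, beside 2 and 141 over all genes.

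Promoters of Klf2, Klf4, and Klf6 are shown because these genes rose together in NPmut mice. The sequences come from RefSeq on GRCm38.p6, read on the strand of the gene, and are restricted to the bases before both the RefSeq and the GENCODE start. RefSeq windows from 250 bases before to 50 after the start site were at hand for 9 of 10 members, without Klf10. The only stretch that matched one of 6 motifs searched is in capitals, a MEF2 box in the Klf2 promoter that matches on both strands from 118 to 109 bases before the start.
Klf2, chr8:72318812-72319032, plus strand: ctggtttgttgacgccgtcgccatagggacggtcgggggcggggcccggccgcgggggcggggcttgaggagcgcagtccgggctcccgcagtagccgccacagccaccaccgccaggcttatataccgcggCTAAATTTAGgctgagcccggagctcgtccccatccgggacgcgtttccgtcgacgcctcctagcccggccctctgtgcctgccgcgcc
Klf4, chr4:55532476-55532725, minus strand: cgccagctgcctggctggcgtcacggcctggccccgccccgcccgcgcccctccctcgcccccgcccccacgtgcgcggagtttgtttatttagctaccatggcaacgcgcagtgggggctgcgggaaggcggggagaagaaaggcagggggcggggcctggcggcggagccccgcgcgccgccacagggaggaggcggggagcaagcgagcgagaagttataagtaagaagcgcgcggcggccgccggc
Klf6, chr13:5861239-5861481, plus strand: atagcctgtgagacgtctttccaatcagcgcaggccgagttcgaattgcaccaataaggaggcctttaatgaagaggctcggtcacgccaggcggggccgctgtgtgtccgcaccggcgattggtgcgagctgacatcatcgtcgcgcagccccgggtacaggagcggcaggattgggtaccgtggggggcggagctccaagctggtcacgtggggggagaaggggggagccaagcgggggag
The MEF2 box is found in 1.86% of 32851 mouse promoter windows and, among the members, only in Klf2. Klf4, Klf6, and Klf11 held none of the 6 motifs. The AP-1 site TGANTCA occurred in Klf9 alone, 89 to 83 bases before the start, and in 7.81% of all windows. The CACCC element that KLFs bind occurred in 6 of 9 members, with 5 copies in Klf3 and 1 in Klf2 after the stretch printed here, and in 57.5% of all windows. No member held the CRE TGACGTCA, the CArG box, or the NF-κB site, which occur in 1.79%, 1.63%, and 8.46% of windows. Both strands were searched, and one AP-1 site and one CACCC element of Klf9 share bases. A match describes the letters of these windows only.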

How the data were processed

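One deposited table of raw counts held 54838 Ensembl genes in 13 mice, with 1 column per mouse. Per the labels, the authors made libraries with a stranded total RNA kit for picogram input, and the submitters' processing notes name STAR 2.6.1d, R 3.6.1, DESeq2 1.26.0, and GRCm38.p6. The counting program and its strand setting are not given in the sources used here. GENCODE M21 (GRCm38) holds 54809 of the genes, but not 29, and gave names, coordinates, and exonic lengths.

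R 4.3.3 and edgeR 4.0.16 were used for 1 robust quasi-likelihood fit to all libraries, with a mean per group, TMM factors, and filterByExpr, which kept 17795 of 44944 genes with at least 1 count. Benjamini-Hochberg adjustment covered every tested gene. Profiles for likeness used log2 CPM with a prior count of 2 and genes with a mean of at least 1. Library totals of 12576174 to 29124022 counts limit the precision of low genes such as Klf12. The labels give no litters or batches, and p-values measure only the spread between these mice.

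Members and gene lists were chosen with earlier results of these data known. All 10 members were named in each comparison. From every other list, up to 4 called genes with the largest change in NPmut compared with control mice were named, or all where 5 or fewer passed. Thbd, Per1, Tsc22d3, Csf1r, Fcgr1, and Cd3e levels and the uncalled Klf and Sp genes were named after their values were seen. The values of 1 gene of the target list are not reported here. Alternatives were DESeq2 1.42.0, other scaling factors and filters, only the compared groups, the replicate number as a block, and each mouse left out in turn. Control and p53mut mice of equal number had correlated deviations (0.166, 0.163, and 0.152), while the labels tie the number to nothing shared. The fits were also run on simulated counts, which gave all groups the same spread per gene. The wider spread of NPmut mice, with a median SD of log2 CPM of 0.351 against 0.196 in control mice, was not simulated.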

Additional observations from a re-analysis of the deposited data

How the results depend on the processing

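Klf2, Klf4, Klf6, and Klf11 had positive estimates in NPmut against control mice under all 21 alternatives, but the call was lost in 7 for Klf2, 1 for Klf4, 2 for Klf6, and 0 for Klf11. Klf2 was lost with no filter (adjusted p = 0.0738), the replicate block (0.0627), and the block with only the compared groups (0.195), where Klf6 was lost too (0.167). Klf3 was gained as lower under these 3 settings (0.0392, 0.0235, and 0.0445). With 1 mouse left out, 1 to 5 members passed against control mice, where only Klf11 was left without control mouse 3. Against NrasG12D mice 1 to 3 passed, only Klf4 without any 1 NrasG12D mouse, and against p53mut mice 1 to 3, only Klf4 without p53mut mouse 1 or 3. The interaction called 0 to 3, with 1 (Klf4) without p53mut mouse 2, and 1 (Klf4) with DESeq2 or with at least 10 counts in every library. Fitting only the compared groups left 1 member, Klf4, against p53mut mice. The replicate block with only the compared groups called 1 member, Klf11, in p53mut mice and left 1, Klf4, against NrasG12D mice. Of the pairs of groups, only control with p53mut had deviations that correlated positively for every equal number, at 0.152 to 0.166. Mice of unequal number were not compared in this way. Estimates that changed sign were of members that did not pass. For p53mut against control mice, the log2 fold change of Klf2 was -0.13 with the replicate block and -0.11 with the block and only the compared groups. With 1 mouse left out it ranged from -0.77 to 0.46 for Klf2, -0.12 to 0.21 for Klf3, -1.47 to 0.26 for Klf4, -0.28 to 0.12 for Klf7, and -0.043 to 1.15 for Klf12. For NrasG12D against control mice, Klf3 was at -0.0083 with library totals, and the left-out ranges were -0.025 to 0.12 for Klf3 and -0.49 to 0.073 for Klf2. For NPmut against NrasG12D mice, Klf9 was at -0.0026 with library totals, -0.13 with the block, and -0.16 with the block and only the compared groups, and ranged from -0.13 to 0.23. Klf12 was at 0.0062 with no filter, 0.027 with the block, and 0.023 with the block and only the compared groups, and ranged from -0.31 to 0.46. The interaction ranged from -1.15 to 0.079 for Klf12 and from -0.22 to 0.14 for Klf13. The causes were not tested. Over all genes, the 958 higher and 986 lower calls in NPmut against control mice became 813 in all without control mouse 3 and 933 with only the compared groups, and the interaction rose from 309 to 876 with DESeq2 and 933 with no filter. In NrasG12D mice, 1 call became 141 with DESeq2, and in p53mut mice 0 became 56 with the block and only the compared groups. Low counts limit Klf12.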
